A study of Mus musculus with 8 samples.

Results

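The 7 genes described here encode the enzymes that write and erase DNA methylation and 1 protein that reads it: Dnmt1, Dnmt3a, Dnmt3b, Tet1, Tet2, Tet3 and Uhrf1. They were chosen by gene symbol from a table of 23284 genes, and all 7 were found and passed the filter on low counts. The libraries came from C57BL/6J mice, 4 from postnatal day 0 (P0) and 4 from postnatal day 8 (P8). Cells were dissociated from whole brain and separated on magnetic beads with an antibody to GLAST, the glutamate transporter encoded by Slc1a3. The labels name the sorted cells radial glia at P0 and astrocyte precursors at P8. The labels carry no treatment or mutant allele and do not say whether replicates were separate animals or pools, so the p-values speak only of the spread among these 8 libraries, which may be technical.

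DNA methylation is the addition of a methyl group to cytosine, in vertebrates mostly where a guanine follows (CpG). DNMT1 copies the pattern onto the new strand after DNA replication, and UHRF1 binds the hemimethylated DNA behind the fork and brings DNMT1 to it. DNMT3A and DNMT3B set methylation on sites that had none. The TET dioxygenases TET1, TET2 and TET3 oxidise methylcytosine, which opens the way to its removal. In the developing mouse brain, loss of Dnmt1 from neural progenitors is known to bring forward the expression of astrocyte genes such as Gfap.

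Total counts ranged from 30708719 to 94308235 per library, and P0 2 was the shallowest. That library also lay apart from the other P0 libraries on the second principal component of log2 CPM, which held 8.85% of the variance. Slc1a3 was read in every library, at 228 to 331 CPM (a gene's reads scaled to the library total) at P0 and 3718 to 5029 CPM at P8. P8 2 stood apart from the other P8 libraries in neuronal and oligodendrocyte markers: its mean log2 CPM was 1.79 for mature neuron markers (3.91 to 4.18 in the others), 2.68 for neuroblast markers (4.28 to 4.60) and 5.46 for oligodendrocyte markers (6.92 to 7.44). The mean log2 CPM of 13 astrocyte markers ran from 5.33 to 5.61 at P0 and from 9.03 to 9.15 at P8, and that of 12 radial glia markers from 5.80 to 6.55 and from 7.96 to 8.24, with no marker of either list at 0. Markers of other cells were also read at both ages. The choroid plexus list (12 genes) ran from 8.01 to 8.74 at P0 and from 2.24 to 4.69 at P8, and the endothelial list (11 genes) from 6.93 to 7.25 and from 4.56 to 5.67. Neuroblast, mature neuron, oligodendrocyte and microglia lists had 8 of 14, 11 of 12, 8 of 13 and 10 of 12 genes called higher at P8. Their median log2 fold changes were 2.31, 3.17, 3.68 and 1.81. Of all tested genes, 24.5% were called higher. In the oligodendrocyte list, 2 genes were called lower. When the fit also took in the replicate number, 5 of 12 microglia genes were called higher. In such mixed bulk samples, fewer cells of a type and less RNA per cell cannot be told apart, and the part of these shifts in the results on the 7 genes was not tested.

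The start regions of Uhrf1, Dnmt1 and Tet1 are shown because these are the members that rose at P8. Uhrf1 and Dnmt1 are known S-phase genes, a class whose promoters often carry sites for E2F factors. RefSeq windows (build GRCm38.p6, 250 bases before to 50 after a transcript start) were found for all 7 genes, 12 windows in all. The E2F consensus was searched as TTTCCCGC, TTTCGCGC, TTTGGCGC and TTTGCCGC on both strands; TTTCGCGC can share letters with its own reverse complement. It occurred in 744 of 32851 RefSeq windows (2.26%), and among the 12 windows in 1 of the 2 of Uhrf1 and 1 of the 3 of Dnmt1. These 2 windows held 33 CpG each, against a median of 7 over all windows. Windows without a match held as many or more in Tet2 (57) and Dnmt3a (46 and 47), and 30 in Dnmt3b, while the other windows of Dnmt1 held 2 and 12 and that of Uhrf1 12. The single Tet1 window held 17 CpG and no match. Each motif searched contains a CpG, and the 33 CpG of the matched windows lie above the 90th percentile of 31. No share with a match is given for windows as rich in CpG, so the 2.26% is not matched for CpG. Capitals mark the matches, read 5′ to 3′ on the gene's strand.
Uhrf1, chr17:56304063-56304362, plus strand: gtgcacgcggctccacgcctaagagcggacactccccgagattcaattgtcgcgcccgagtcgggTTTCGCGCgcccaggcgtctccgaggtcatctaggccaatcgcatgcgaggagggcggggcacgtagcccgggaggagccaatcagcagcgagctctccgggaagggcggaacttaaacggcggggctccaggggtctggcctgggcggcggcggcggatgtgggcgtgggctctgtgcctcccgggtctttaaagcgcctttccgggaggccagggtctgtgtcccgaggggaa
Dnmt1, chr9:20952574-20952873, minus strand: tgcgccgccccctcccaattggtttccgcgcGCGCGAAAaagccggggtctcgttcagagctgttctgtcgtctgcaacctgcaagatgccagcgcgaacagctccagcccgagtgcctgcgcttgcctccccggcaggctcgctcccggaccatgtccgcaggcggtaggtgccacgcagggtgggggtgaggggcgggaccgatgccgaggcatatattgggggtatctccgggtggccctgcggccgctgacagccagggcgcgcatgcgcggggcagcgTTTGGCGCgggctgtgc
Tet1, chr10:62887275-62887574, minus strand: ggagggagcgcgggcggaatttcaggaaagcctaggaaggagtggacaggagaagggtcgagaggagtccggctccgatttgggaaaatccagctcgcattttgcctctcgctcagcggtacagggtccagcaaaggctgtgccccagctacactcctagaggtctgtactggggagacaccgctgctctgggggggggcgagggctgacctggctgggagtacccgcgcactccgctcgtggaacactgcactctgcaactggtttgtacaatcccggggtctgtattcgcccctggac
A match describes these letters only, and no binding was measured.

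Between P0 and P8, 5 of the 7 genes changed, in both directions. Uhrf1, Tet1 and Dnmt1 were called higher at P8, and Tet2 and Tet3 lower. Dnmt3a and Dnmt3b did not pass the test. A gene was called at a Benjamini-Hochberg adjusted p under 0.05 in edgeR's quasi-likelihood test over all 16808 genes tested. By that rule 5 of the 7 were called, against 49.5% of all tested genes. Leaving out 1 library gave 3 of 7 called without P0 2 (48.2% of all tested genes), P0 3 (43.6%), P8 1 (41.0%), P8 3 (43.4%) or P8 4 (43.3%). It gave 4 without P8 2 (46.3%), 5 without P0 4 (48.5%) and 6 without P0 1 (48.8%). The 3 higher genes compare with a background of 24.5%, and the 2 lower with 25%. The CPM of the ages did not overlap for 3 of the 7 (Uhrf1, Dnmt3b and Tet2), against 47.2% of tested genes. Between 26.7% (Dnmt3a) and 68.7% (Uhrf1) of tested genes had a smaller absolute change. Absolute log2 fold changes ran from 0.29 for Dnmt3a to 1.14 for Uhrf1, and the median over all tested genes was 0.64. The authors' deposited table gave 4 of the 7 a false discovery rate under 0.05, against 48.6% of 15546 genes. Tet2 was the exception among the 5, at 0.0519 in the authors' deposited table.

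**Figure D1:**
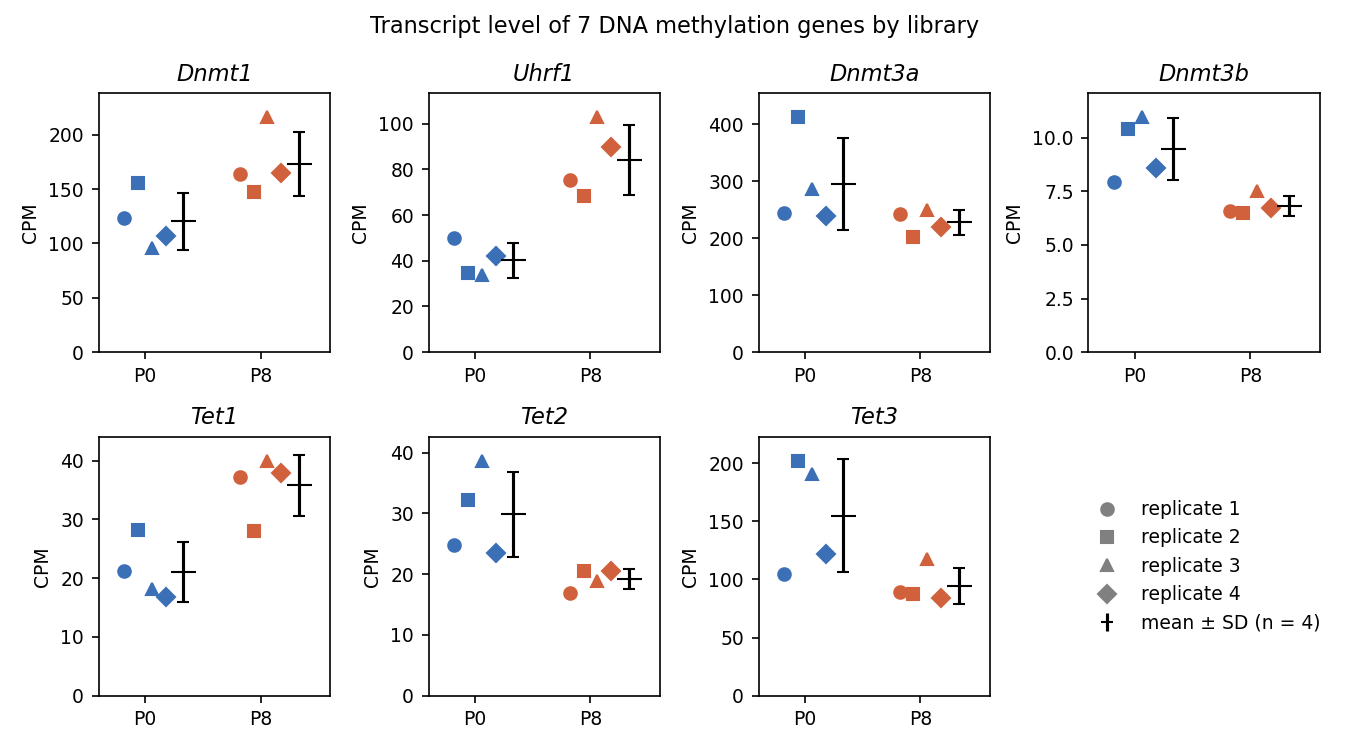
CPM of each gene in each library, with a linear axis from 0 in every panel. Symbols give the replicate, and black bars the mean ± SD over 4 libraries. The ages do not overlap for Uhrf1, Dnmt3b and Tet2, and replicate 2 stands highest of the P0 libraries for Dnmt3a, at 413 CPM.

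Maintenance was represented by Uhrf1 and Dnmt1, and both rose. Uhrf1 lies on chromosome 17, 56442744 to 56462909, plus strand (NCBIM37, as for the positions that follow). Values are given in the order of replicates 1 to 4. In P0 libraries it measured 49.98, 34.6, 33.8 and 42.3 CPM, and in P8 libraries 75.3, 68.5, 103 and 89.96 CPM. Every P8 library was above every P0 library. The means were 40.2 ± 7.57 and 84.2 ± 15.4 CPM (SD, n = 4; log2 fold change 1.14 ± 0.17 (SE), edgeR adjusted p = 0.000508). The call was kept in each of the 8 fits that left out 1 library.

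Dnmt1 lies on chromosome 9, 20711650 to 20757317, minus strand. The P0 libraries held 124, 156, 95.998 and 106 CPM, and the P8 libraries 164, 148, 216 and 165 CPM. P0 2 was above P8 2, so the ages overlapped. Its mean increased, from 120.5 ± 26.2 to 173 ± 29.9 CPM (SD, n = 4; log2 fold change 0.60 ± 0.17 (SE), edgeR adjusted p = 0.0174). Leaving out P8 3, the highest library, gave 0.50 and an adjusted p of 0.0509 in edgeR, which ends the call. Leaving out P0 2 lowered the P0 mean to 109 CPM and gave a log2 fold change of 0.74.

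De novo methylation was represented by Dnmt3a and Dnmt3b. Dnmt3a (chromosome 12, 3806007 to 3914443, plus strand) had the highest CPM of the 7 genes at both ages. CPM at P0 was 245, 413, 287 and 239, and at P8 it was 242, 202, 249.7 and 219. The P8 libraries lay close together, while P0 2 stood far above the rest. Dnmt3a did not pass (log2 fold change -0.29 ± 0.18 (SE), edgeR adjusted p = 0.210). Without P0 2 its log2 fold change was -0.09. An exon of Dnmt3a overlaps 133 bases of Gm10485 on the other strand, and the library kit does not mark strand, so reads there could belong to either.

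Dnmt3b (chromosome 2, 153475186 to 153513466, plus strand) was far lower. Its P0 values were 7.93, 10.4, 10.97 and 8.57 CPM, and its P8 values 6.57, 6.47, 7.51 and 6.70 CPM. All P0 libraries were above all P8 libraries, by a narrow gap between P0 1 and P8 3. It did not pass (log2 fold change -0.39 ± 0.17 (SE), edgeR adjusted p = 0.0854). DESeq2 called it lower (adjusted p = 0.0275), as did edgeR without P0 1 (adjusted p = 0.0495). Dnmt3l, a cofactor of DNMT3A and DNMT3B in germ cells, had 1 count in P0 1, 1 in P0 3 and 0 in the other libraries.

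The TET genes split. Tet1 (chromosome 10, 62267318 to 62361866, minus strand) rose. At P0 the libraries read 21.1, 28.2, 18.2 and 16.7 CPM, and at P8 37.2, 28.1, 40.03 and 37.8 CPM. The ages overlapped only where P0 2 met P8 2, which was the lowest P8 library for Tet1, as it was for Dnmt1, Uhrf1, Dnmt3a and Dnmt3b. The means were 21.1 ± 5.08 and 35.8 ± 5.26 CPM (SD, n = 4; log2 fold change 0.84 ± 0.19 (SE), edgeR adjusted p = 0.00434), and the call was kept in all 8 fits without 1 library.

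Tet2 (chromosome 3, 133126643 to 133207354, minus strand) fell. In P0 libraries it measured 24.9, 32.3, 38.7 and 23.4 CPM, and in P8 libraries 16.9, 20.5, 18.9 and 20.5 CPM. Every P0 library was above every P8 library. The means were 29.8 ± 7.08 and 19.2 ± 1.70 CPM (SD, n = 4; log2 fold change -0.55 ± 0.18 (SE), edgeR adjusted p = 0.0271). The call was lost without P0 2, P0 3, P8 1, P8 3 or P8 4, with log2 fold changes of -0.51, -0.41, -0.50, -0.52 and -0.56 and edgeR adjusted p of 0.0545, 0.078, 0.0811, 0.06997 and 0.054. It was also lost with the replicate number as a block (adjusted p = 0.055).

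Tet3 (chromosome 6, 83312367 to 83391672, minus strand) was the most abundant TET transcript and also fell. The P0 libraries held 105, 202, 191 and 122 CPM, and the P8 libraries 88.9, 87.8, 118 and 84.2 CPM. P0 2 and P0 3 were high, and P8 3 was above P0 1. The means were 155 ± 48.9 and 94.7 ± 15.6 CPM (SD, n = 4; log2 fold change -0.63 ± 0.22 (SE), edgeR adjusted p = 0.0352). The call was lost without P0 2, P0 3, P8 1, P8 2 or P8 4, with log2 fold changes of -0.48, -0.52, -0.61, -0.61 and -0.56 and edgeR adjusted p of 0.0901, 0.1001, 0.0845, 0.0651 and 0.0919. The choroid plexus list was also highest in P0 2 and P0 3, at a mean log2 CPM of 8.74 and 8.61, against 8.01 in P0 1 and 8.43 in P0 4. At P8 the order ran the other way at both ends. The list was lowest in P8 3 (2.24), where Tet3 was highest, and highest in P8 4 (4.69), where Tet3 was lowest. The part of choroid plexus RNA in the Tet3 values was not tested.

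**Figure D2:**
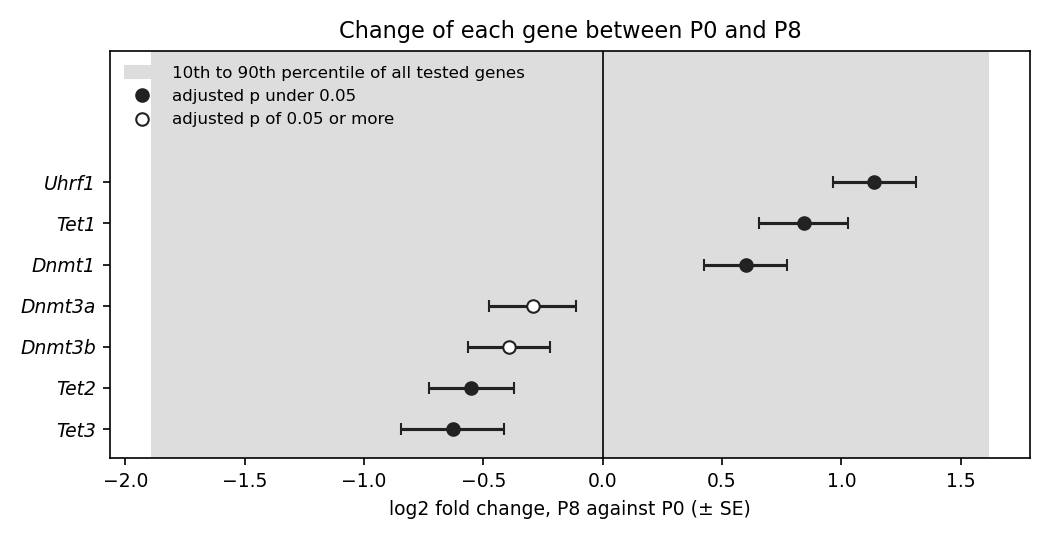
Log2 fold change of P8 against P0 for each gene, with bars of 1 standard error. Filled points passed an adjusted p under 0.05 in edgeR. The points run from -0.63 for Tet3 to 1.14 for Uhrf1, all inside the grey band from the 10th to the 90th percentile of tested genes (-1.89 to 1.61).

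To compare levels between genes, the deposited RPKM were used, which divide CPM by gene length in kilobases. At P0 the order of mean RPKM (± SD, n = 4) was Dnmt3a (30.03 ± 8.22), Dnmt1 (19.11 ± 4.16), Tet3 (14.2 ± 4.48), Uhrf1 (11.01 ± 2.07), Tet2 (3.25 ± 0.771), Dnmt3b (2.19 ± 0.335) and Tet1 (1.495 ± 0.361). At P8 it was Dnmt1 (27.5 ± 4.74), Dnmt3a (23.2 ± 2.20), Uhrf1 (23.1 ± 4.21), Tet3 (8.68 ± 1.43), Tet1 (2.54 ± 0.373), Tet2 (2.09 ± 0.185) and Dnmt3b (1.58 ± 0.109). At P0 the ranges of each neighbouring pair from Dnmt3a to Uhrf1 overlapped, and Tet3 was above Uhrf1 in 2 of 4 libraries. Uhrf1, Tet2 and Dnmt3b stood apart from each other, and Dnmt3b overlapped Tet1. At P8 Dnmt3a was above Uhrf1 in 2 of 4 libraries, both stood clear of Tet3, and Tet1 overlapped Tet2. These levels rest on the length column of the table. With the merged exons of GENCODE M1, where Dnmt3a spans 16642 bases in place of 9852, Dnmt1 came before Dnmt3a at P0 (22.9 and 17.8 CPM per kilobase), and at P8 Uhrf1 came before Dnmt3a (19.8 and 13.7). Those lengths were tried after the values were seen.

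Within families the makeup differed between the ages. The summed RPKM of Dnmt1, Dnmt3a and Dnmt3b was 51.3 ± 11.9 at P0 and 52.2 ± 6.72 at P8. Dnmt1 made up 42.3%, 35.8%, 32.5% and 39.2% of it at P0 and 49.9%, 51.6%, 55.9% and 52.4% at P8. Its share was higher in every P8 library than in any P0 library. Dnmt3a went from 58.2 ± 3.90% to 44.5 ± 2.45%, and Dnmt3b from 4.36 ± 0.836% to 3.04 ± 0.206%.

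The summed RPKM of the 3 TET genes was 18.96 ± 5.34 at P0 and 13.3 ± 1.61 at P8. Tet1 made up 10.9%, 8.31%, 5.61% and 7.98% of it at P0 and 20.9%, 16.3%, 18.1% and 21.3% at P8, with no overlap. Tet3 held the largest share in all 8 libraries, 74.4 ± 3.35% at P0 and 64.99 ± 3.17% at P8. The share of Tet2 was 17.4 ± 2.12% and 15.9 ± 2.43%, with overlapping ages.

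**Figure D3:**
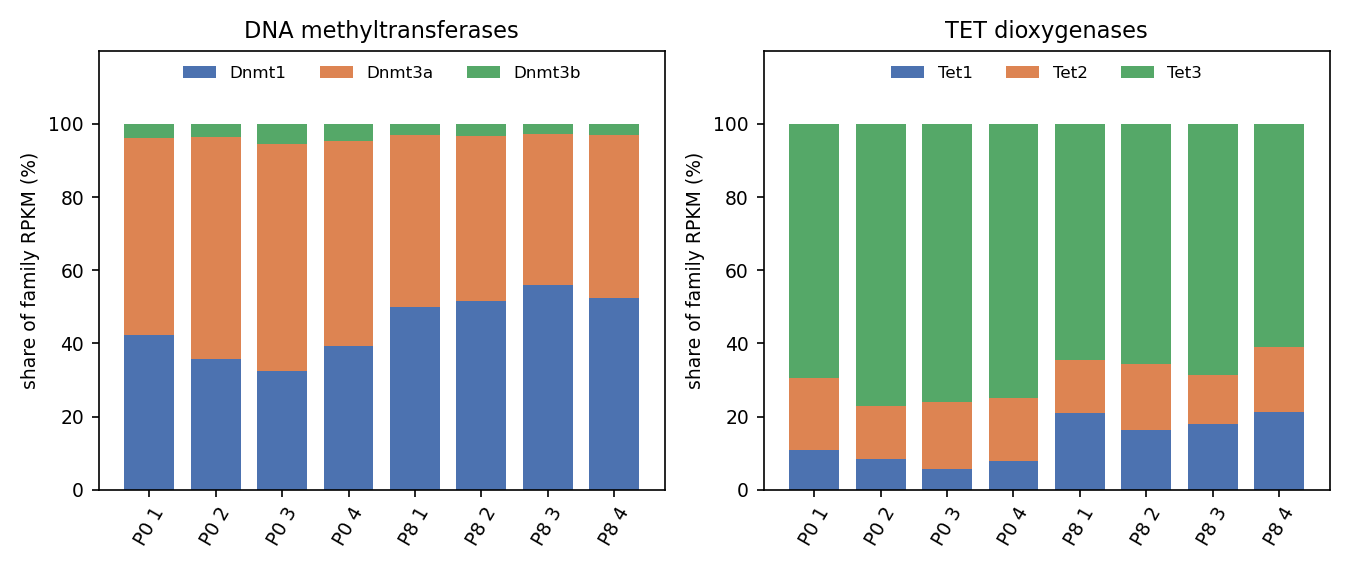
Share of each gene in the summed RPKM of its family, one stacked bar per library, in percent. Dnmt1 held 32.5% to 42.3% of the methyltransferase sum at P0 and 49.9% to 55.9% at P8, and Tet1 held 5.61% to 10.9% of the TET sum at P0 and 16.3% to 21.3% at P8.

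Whether family members changed differently was tested on the log2 ratio of their counts within each library, which carries no library size. The exact two-sided permutation test over 70 splits allows no p below 0.0286, and 9 pairs were compared. The log2 ratio of Tet1 to Tet3 was -2.85 ± 0.44 at P0 and -1.40 ± 0.23 at P8, a difference of 1.45 (exact p = 0.0286, adjusted over the 9 pairs 0.0514). That of Tet1 to Tet2 was -0.50 ± 0.41 and 0.89 ± 0.31, a difference of 1.39 with the same p. These are ratios of counts, not of levels per length: by RPKM, Tet1 was above Tet2 in 3 of 4 P8 libraries, and below it in P8 2. The ratio of Tet2 to Tet3 differed by 0.06 with a standard error of 0.25 in limma.

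Dnmt1 gained on Dnmt3a by 0.88 and on Dnmt3b by 0.996 on the log2 scale, with no overlap of the ages (exact p = 0.0286, adjusted 0.0514, for each). Uhrf1 to Dnmt1 stood at -1.31, -2.17, -1.50 and -1.33 in P0 1 to P0 4 and at -1.12, -1.11, -1.07 and -0.87 in P8 1 to P8 4, a difference of 0.53 (exact p = 0.0286, adjusted 0.0514) and of 0.34 without P0 2. Dnmt3a to Dnmt3b differed by 0.12 with a standard error of 0.17 in limma. In all, 5 of the 9 pairs reached the smallest possible p, and 0 of 9 passed after adjustment. With 5 of 9 pairs at the smallest p, its adjusted value is 0.0514. These 5 therefore could not pass, however large their differences. The smallest p is reached whenever the ages do not overlap, which held for the CPM of 47.2% of single tested genes. A share over all gene pairs is not given. The pairs share genes, so these 5 are not independent results. A limma test of the same ratios, fitted over 16807 genes and chosen after these values were seen, passed 4 pairs: Tet1 with Tet2 and with Tet3 (adjusted p = 0.00263 and 0.00292), and Dnmt1 with Dnmt3a and with Dnmt3b (adjusted p = 0.00839 and 0.00473). It did not pass Uhrf1 with Dnmt1 (adjusted p = 0.0958).

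**Figure D4:**
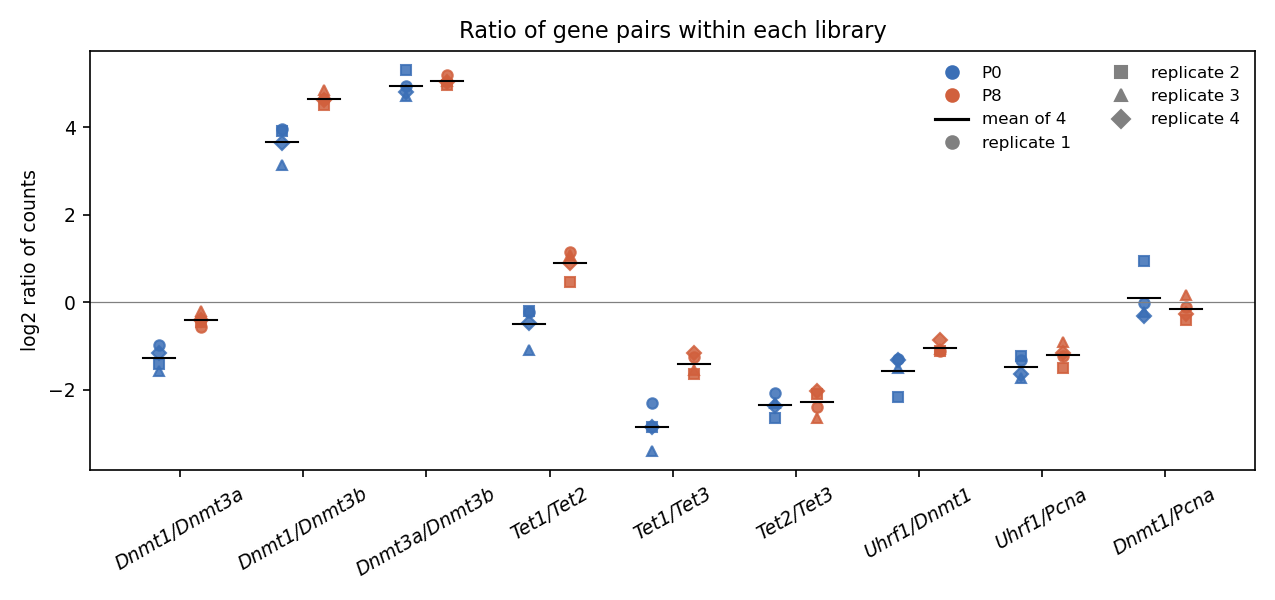
Log2 ratio of counts of gene pairs in each library, with symbols for replicates and lines for the means of 4 libraries. The ages do not overlap for 5 of 9 pairs, those of Dnmt1 with Dnmt3a and Dnmt3b, Tet1 with Tet2 and Tet3, and Uhrf1 with Dnmt1. For CPM of single genes, the ages do not overlap in 47.2% of tested genes.

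DNA replication genes rose in the same libraries as Uhrf1 and Dnmt1. Of 26 genes of replication and the G1/S transition, 21 were higher, 0 lower and 5 not called. Over all tested genes, 24.5% were called higher. The median log2 fold change of the list was 0.79, against 0.04 over all tested genes. Leaving out 1 library gave from 15 higher (without P8 3) to 23 (without P0 1). Scaling by library totals alone gave 18. Of 20 mitosis genes, 8 were higher and 12 not called, with a median of 0.45. Leaving out 1 library gave from 6 higher (without P8 4) to 10 (without P0 4). At P0 the mean log2 CPM of the replication list was 4.61, 4.02, 4.07 and 4.36 in P0 1 to P0 4. Uhrf1 lay above it by 1.03, 1.09, 1.01 and 1.05, with an SD of 0.033 over the P0 libraries. At P8 it lay above the list by 1.27, 1.20, 1.46 and 1.41, higher than in any P0 library. The difference between the ages was 0.29 on the log2 scale. Genes of the list differed among themselves, with log2 fold changes from -0.03 to 1.49, and 5 of the 26 were above the 1.14 of Uhrf1.

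Dnmt1 lay 2.34, 3.26, 2.52 and 2.38 above the replication list in P0 1 to P0 4 and between 2.29 and 2.53 above it at P8. P0 2 was the one library set apart. Tet1 lay between -0.29 and 0.79 from the list at P0 and between -0.08 and 0.25 at P8. Against Pcna, the sliding clamp of the replication fork that DNMT1 binds, the ages overlapped for both genes. The log2 ratio changed by 0.28 for Uhrf1 (exact p = 0.171, adjusted 0.257) and by -0.25 for Dnmt1 (exact p = 0.6, adjusted 0.675), the latter with a standard error of 0.30 in limma. Without P0 2 the Dnmt1 difference was 0.03.

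**Figure D5:**
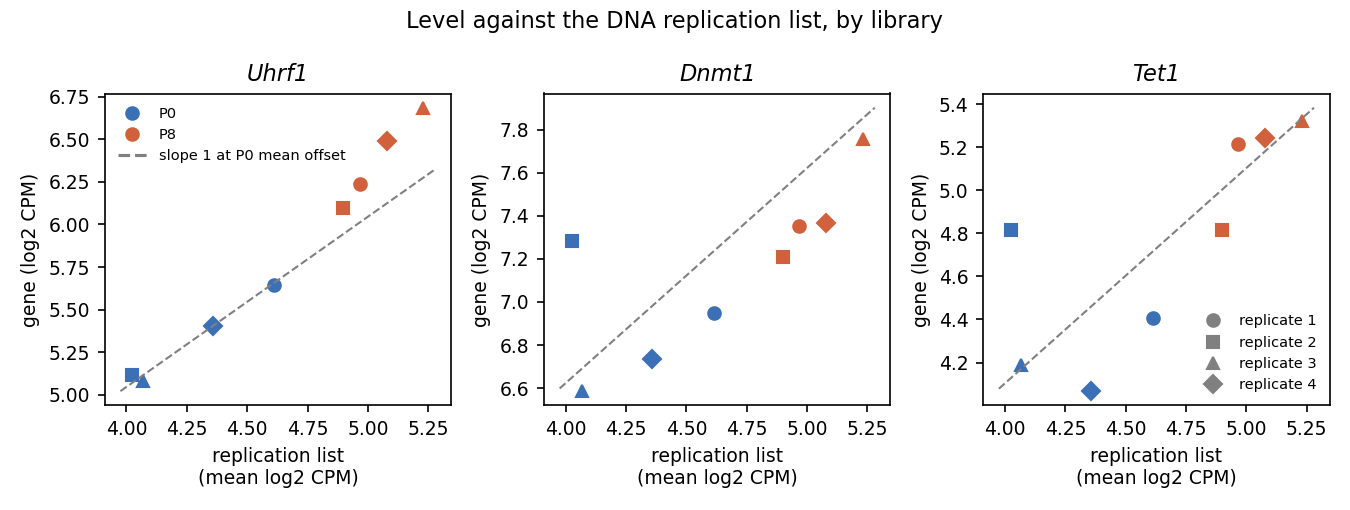
Log2 CPM of Uhrf1, Dnmt1 and Tet1 against the mean log2 CPM of 26 replication genes, one point per library. The dashed line has a slope of 1 and passes at the mean P0 offset. Uhrf1 lies close to it in every P0 library (offsets 1.01 to 1.09) and above it in every P8 library (1.20 to 1.46), and P0 2 stands off the line for Dnmt1.

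The partners of these enzymes were described with lists of 86 other genes, of which 71 were tested. Of these, 16 were higher at P8, 17 lower and 38 not called, so 46.5% were called against 49.5% of all tested genes. Among 9 maintenance partners, 6 were higher, 0 lower and 3 not called (median log2 fold change 0.49), against 24.5% higher over all tested genes. The count of higher genes was 3 without P0 3 or without P8 2, where Cdca7l, Lig1 and Uhrf2 lost their calls. Pcna rose from 113 ± 22.6 CPM at P0 to 191 ± 9.88 at P8 (edgeR adjusted p = 0.00203). Hells, the chromatin remodeller needed for normal DNA methylation, rose from 12.7 ± 0.564 CPM at P0 to 22.5 ± 4.86 at P8 (edgeR adjusted p = 0.00154). Cdca7, which works with HELLS, rose from 10.03 ± 3.31 CPM at P0 to 25.6 ± 6.70 at P8 (edgeR adjusted p = 0.00276). Cdca7l, its paralog, rose from 7.94 ± 1.90 CPM at P0 to 11.8 ± 2.23 at P8 (edgeR adjusted p = 0.0391), a call lost in 5 of 8 fits without 1 library (P0 2, P0 3, P8 2, P8 3 or P8 4, adjusted p up to 0.104), with the replicate block (0.0720) and with library totals alone (0.0666).

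Among 11 genes of de novo methylation and imprint protection, 9 were tested (median -0.11). Of these, 0 were higher and 1 was lower, beside 24.5% and 25% of all tested genes. The lower one was Setd2, which writes the histone mark that DNMT3 enzymes bind: it fell from 135 ± 25.6 CPM at P0 to 86.3 ± 5.94 at P8 (edgeR adjusted p = 0.00918). Trim28, the corepressor that keeps imprinted regions methylated, had the highest RPKM of the list and stood at 284 ± 20.5 and 304 ± 42.95 CPM (adjusted p = 0.284).

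Of 10 tested readers of methylated CpG, 1 was higher, 4 were lower and 5 were not called (median -0.43), a share called of 5 in 10 beside 49.5% of all tested genes. The count called was 2 without P8 1, both lower, and 3 without P0 3, P8 2 or P8 4, all lower. Mbd2, one of the lower genes, lost its call without P0 1, P0 4, P8 1 or P8 3 (edgeR adjusted p up to 0.0814) and with the replicate block. Zbtb4, a zinc-finger reader, fell from 104 ± 25.5 CPM at P0 to 59.5 ± 5.28 at P8 (edgeR adjusted p = 0.00828). Mbd1 fell from 57.95 ± 10.7 CPM at P0 to 34.9 ± 4.46 at P8 (edgeR adjusted p = 0.00533). The zinc-finger gene Zbtb38 fell from 10.6 ± 1.55 CPM at P0 to 6.31 ± 1.59 at P8 (edgeR adjusted p = 0.0260), but leaving out P0 2, P0 3, P8 1, P8 2 or P8 4 ended that call (adjusted p up to 0.0817). Mbd3, a subunit of the NuRD complex that in mammals binds methylated DNA poorly, rose from 95.8 ± 14.4 CPM at P0 to 121 ± 4.22 at P8 (edgeR adjusted p = 0.0245). That call was lost without P0 3, P8 1, P8 2 or P8 4 (adjusted p up to 0.0699) and with library totals alone.

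Downstream of the TET enzymes, the glycosylase gene Tdg, whose product removes the oxidised bases, rose. CPM at P0 was 65.99, 70.7, 83.97 and 85.1, and at P8 it was 108, 96.7, 119.8 and 119. Every P8 library was above every P0 library (log2 fold change 0.61 ± 0.12 (SE), edgeR adjusted p = 0.00239). Apex1, the endonuclease that acts after it, rose from 31.9 ± 10.3 CPM at P0 to 61.4 ± 4.91 at P8 (edgeR adjusted p = 0.00539). Over all tested genes, 24.5% were called higher and 49.5% in either direction. Of the 14 genes of this list that were tested, 4 were called, 3 higher and 1 lower, and 10 were not (median 0.497). The lower one was the glycosylase gene Neil2, from 1.67 ± 0.653 CPM at P0 to 0.610 ± 0.110 at P8 (edgeR adjusted p = 0.0143), a call lost with the replicate block (adjusted p = 0.0608). Ung, a uracil glycosylase, rose from 7.89 ± 2.43 CPM at P0 to 12.2 ± 1.07 at P8 (edgeR adjusted p = 0.0237), but leaving out P0 3, P8 1, P8 3 or P8 4 ended that call (adjusted p up to 0.0617). Gadd45g had the highest RPKM of the list and stood at 77.5 ± 23.996 and 66.7 ± 11.2 CPM (adjusted p = 0.640).

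Of the 9 tested genes of the TET cofactor and partner list, 4 were called, beside 49.5% of all tested genes. They went both ways, with 3 higher and 1 lower, and 5 genes were not called. The isocitrate dehydrogenases make the alpha-ketoglutarate that TET enzymes consume. Idh1, the cytosolic form, rose. Its P0 values were 119, 135, 165 and 169.6 CPM, and its P8 values 277, 267, 274 and 287 CPM. Idh2, the mitochondrial form, fell. At P0 the libraries read 454, 349, 405 and 391 CPM, and at P8 170.2, 179, 164 and 156 CPM. The ages did not overlap for either (Idh1 log2 fold change 0.99 ± 0.14 (SE), edgeR adjusted p = 0.000283; Idh2 log2 fold change -1.17 ± 0.14 (SE), edgeR adjusted p = 9.87e-05). Idh3a, a subunit of the mitochondrial NAD-linked enzyme, rose from 91.9 ± 6.40 CPM at P0 to 153 ± 12.7 at P8 (edgeR adjusted p = 0.000419). Cxxc4, which encodes a CXXC protein that binds TET2, rose from 5.92 ± 0.740 CPM at P0 to 10.3 ± 2.58 at P8 (edgeR adjusted p = 0.00716).

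Of 11 tested methyl donor genes, 0 were higher, 8 were lower and 3 were not called, with a median log2 fold change of -1.15. Over all tested genes, 25% were called lower. Gnmt, which uses S-adenosylmethionine to methylate glycine, fell. In P0 libraries it measured 14.1, 6.94, 30.3 and 18.4 CPM, and in P8 libraries 0.435, 0.455, 0.428 and 0.597 CPM. All P8 libraries were far below the P0 libraries (log2 fold change -5.10 ± 0.45 (SE), edgeR adjusted p = 2.06e-05). Bhmt, which remakes methionine from homocysteine, fell from 8.36 ± 2.01 CPM at P0 to 0.642 ± 0.494 at P8 (edgeR adjusted p = 0.000248). Ahcyl2, a relative of the enzyme that hydrolyses S-adenosylhomocysteine, fell from 444 ± 82.6 CPM at P0 to 98.7 ± 13.9 at P8 (edgeR adjusted p = 1.42e-05). Ahcyl1 had the highest RPKM of the list and was not called (adjusted p = 0.148). The 12 choroid plexus markers fell in the same libraries, each of them called (median log2 fold change -5.08), as did 10 of 11 endothelial markers (median over the list -1.62). Lower calls were also made for 8 of 12 mural and meningeal markers (median -2.87), 5 of 7 ependymal markers (-2.35) and 7 of 7 erythroid markers (-1.76). The 25% of all tested genes called lower is the background for these marker counts as well. The part of these marker shifts in the fall of the methyl donor genes was not tested.

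Genes whose profile over the 8 libraries was most like that of each of the 7 were found by the root mean square distance of log2 CPM, each gene centred on its own mean, among 15042 other genes. Nearest to Uhrf1 were Mcm7 (0.0790), C330027C09Rik (0.0975) and Aldh18a1 (0.110), against a median of 0.722 over all. Nearest to Dnmt1 were Telo2 (0.0617), Ccnd2 (0.0732) and Nvl (0.0791), against a median of 0.579. For Tet1 they were Nhsl1 (0.0678), Itsn1 (0.0981) and Zfp142 (0.111), for Tet2 Prkaa1 (0.0760), Otud3 (0.0880) and Larp4 (0.0923), and for Tet3 Tnrc6c (0.0842), Gm11201 (0.0932) and Sema4c (0.0992). For Dnmt3a they were Rad51l3 (0.0412), Ash1l (0.0580) and Dym (0.0620), and for Dnmt3b Rnf40 (0.0400), Icmt (0.0497) and Gmeb2 (0.0505). Among the 7 genes themselves, the closest were Dnmt3b and Tet2 at 0.156 and Dnmt1 and Tet1 at 0.175, and the farthest apart were Uhrf1 and Tet3 at 0.983.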

How the data were processed

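The 8 libraries were made from GLAST-sorted mouse brain cells. Per the labels' protocols, a PicoPure kit served for RNA and a TruSeq RNA kit, version 2, for the libraries; that kit does not mark strand. The submitters' processing notes name TopHat and mm9. The read counter and its annotation were not given in the sources used. The authors deposited 1 table of raw counts. The deposited CPM equalled the count over the library total, and the deposited RPKM equalled CPM over the length in kilobases (relative difference at most 8.71e-12). Other columns, the authors' deposited false discovery rates among them, were used where named.

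The test was edgeR 4.0.16 (R 4.3.3; filterByExpr with minimum count 10 and total 15, TMM, glmQLFit, glmQLFTest) over all libraries, with no covariate. A standard error is the log2 fold change over the root of F. The scripts were tested on simulated data. Ratios used counts plus 0.5, and log2 CPM a prior count of 2. A count of 3 is 0.0318 to 0.0977 CPM at these depths, which covers counting error only. Alternatives were DESeq2 1.42.0, limma 3.58.1, other scalings and filters, a replicate block and leaving out each library. Positions are GENCODE M1 spans on NCBIM37, the assembly behind mm9. Promoter windows are RefSeq's. From each partner list, up to 4 called genes of largest change, with mean CPM of 1 or more, are named with the gene of highest RPKM; a gene so chosen is not reported here. Dnmt3l, Lig1, Uhrf2, Mbd2, Mael, Tdrd1 and Brdt were added after their values were seen. The 7 genes and all lists were chosen with earlier results of these data known. Hmces and 4 listed markers had no row under these symbols.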

Additional observations from a re-analysis of the deposited data

Results flagged for a closer look

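Tet3 in P8 3 stood at 118 CPM, and the other P8 libraries at 84.2 to 88.9 CPM. The gap between it and the nearest library took up more of the range of the 4 libraries than Dixon's 95% limit allows. It was the 1 such case among 14 groups (7 genes at 2 ages), and chance gives about 1 in 20 groups. Without P8 3 the P8 mean of Tet3 was 87.0 CPM and the log2 fold change -0.72 (edgeR adjusted p = 0.0364).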

How the results depend on the processing

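Uhrf1 and Tet1 kept their calls under each alternative run. When each library was left out in turn, the log2 fold changes ranged from 0.50 to 0.74 for Dnmt1 (1 call lost), from -0.46 to -0.32 for Dnmt3b (1 call gained), from -0.65 to -0.41 for Tet2 and from -0.77 to -0.48 for Tet3 (5 calls lost each). The log2 ratio difference ranged from -0.040 to 0.17 for Tet2 with Tet3 (below 0 without P0 2, P8 2 or P8 4) and from -0.39 to 0.029 for Dnmt1 with Pcna (above 0 without P0 2). DESeq2 called Dnmt3b lower (-0.41). With the replicate number as a block, the log2 fold change of Tet2 was -0.53 (adjusted p = 0.055), a call lost, and 7355 genes were called in place of 8321. Same-numbered libraries did not deviate together (correlations across genes of -0.131, -0.0555, 0.0634 and 0.0456), so the numbers were not taken as pairs. Among the 9 ratio pairs, 0 passed in the main test and with counts plus 2. In the main test 5 had an unadjusted exact p under 0.05. These 5 had an adjusted p of 0.0514 in both, from the smallest possible p. They could not pass there, so counts plus 2 is no check of them. With the block 0 passed, and no p below 0.125 was possible. With limma 4 passed. Without 1 library the ratio test allows no p below 0.0571. With GENCODE exon lengths Dnmt1 made up 53.95% and 68.4% of the methyltransferase sum at P0 and P8, and Dnmt3a 41.6% and 28.8%. The cause of these changes was not tested, apart from the lengths themselves.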

Other observations

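Of 17 germline genes that DNA methylation is known to silence in other tissues, 7 had enough counts to be tested. Of these, 1 was higher, 2 were lower and 4 were not called. That is 3 of 7 called, beside 49.5% of all tested genes. Sycp3, a protein of the meiotic chromosome axis, rose from 1.78 ± 0.681 CPM at P0 to 4.77 ± 1.12 at P8 (edgeR adjusted p = 0.00384). Mael fell from 0.889 ± 0.427 CPM at P0 to 0.0320 ± 0.0640 at P8 (edgeR adjusted p = 0.00692) and Tdrd1 from 1.13 ± 0.798 CPM at P0 to 0.157 ± 0.134 at P8 (edgeR adjusted p = 0.0142), both of the piRNA pathway. With such low P8 values, these 2 genes passed the filter on low counts through their P0 values. Genes that pass in that way can only be called lower, so these 2 calls say nothing of the direction of the list. Brdt, a testis bromodomain gene, stood at 6.47 ± 0.494 and 5.41 ± 1.13 CPM and was not called (adjusted p = 0.498).

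Gfap and S100b are glial genes whose promoters are known to lose methylation in mouse development. In P0 libraries S100b measured 18.7, 6.97, 6.61 and 9.27 CPM, and in P8 libraries 116, 99.4, 77.8 and 149 CPM. The ages did not overlap (log2 fold change 3.48 ± 0.38 (SE), edgeR adjusted p = 6.76e-05). Gfap had a log2 fold change of 5.26 (adjusted p = 1.02e-05). No methylation was measured in these libraries.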
